A study of Mus musculus with 12 samples.

Results

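The mucus of the gut is made by goblet cells, and 9 genes were followed here that encode the mucin itself, the proteins packed with it, and the proteins that fold and release it. They were chosen by name as goblet cell genes: Muc2, Fcgbp, Clca3, Zg16, Tff3, Agr2, Rep15, Sytl2 and Klk1, 9 of the 18068 genes of the count table. These genes, and the lists of other genes below, were chosen with earlier results of these data known. The shares of all genes set beside their counts are therefore a description, with no test of a list. RNA was measured in enteroids, cultured epithelial mini-guts grown from the ileum of wild-type C57Bl/6 mice, in 4 groups of 3 libraries. One group received both butyrate (1 mM, 48 h) and interleukin-13 (IL-13, 20 ng/mL, 72 h), one IL-13 alone, one butyrate alone, and one was untreated. IL-13 is a type 2 cytokine and butyrate a short-chain fatty acid made by gut bacteria. Whether the 3 libraries of a group came from different cultures or mice is not in the labels. The p-values therefore reflect only the spread between these libraries, which may be technical.

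MUC2 is a very large secreted glycoprotein that forms disulfide-linked nets. It is folded in the endoplasmic reticulum with the help of the disulfide isomerase AGR2, packed with calcium into granules, and released by regulated exocytosis. Once outside the cell the gel is bound by FCGBP, trefoil factors and the lectin ZG16 and is cut by the protease CLCA1, and it keeps bacteria away from the epithelium.

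All 9 genes had counts in every library, and all 9 were among the 13750 genes tested. The libraries held 13867982 to 24294456 counts. The fewest counts of any of the 9 were those of Klk1, from 24 to 162 per library. Summed over 7 genes common to epithelium, levels were 8110 to 8300 CPM (counts scaled to a common library size) with both agents, 6960 to 7140 with IL-13, 6060 to 6840 with butyrate and 6030 to 6250 untreated. Of 7 immune genes 5 were in the table, with summed levels of at most 17.4 CPM, and the leukocyte gene Ptprc did not exceed 0.721 CPM in any library. In these bulk libraries fewer goblet cells and less RNA per goblet cell cannot be told apart.

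The table row named Clca3 (ENSMUSG00000028255, chromosome 3, 145004537 to 145032776, mm10) is the gene now called Clca1. The other 8 rows carry current symbols. Muc2 needs more care: its row (chromosome 7, 141746832 to 141754690, plus strand) has the ends of a single GENCODE transcript, Muc2-201, at the 3′ end of the gene, and holds 2032 of the 7127 annotated exon bases, or 28.5%. GENCODE places the gene from 141690340 to 141754693. Rows of the other 8 genes held between 56.3% (Rep15) and 100% of the exon bases. The 250 bases before the start of Muc2 are printed because they lie far upstream of the counted row, beside those of Fcgbp, which lies on the same chromosome, and of Agr2, which with Zg16 fell most with both agents. They are RefSeq sequences of GRCm38.p6, the assembly of mm10, all on the plus strand, at chr7:141690090-141690339 (Muc2), chr7:28070986-28071235 (Fcgbp) and chr12:35992675-35992924 (Agr2). Capitals mark CAGCTG, a form of the E-box bound by ATOH1, a factor of the secretory lineages.
Muc2: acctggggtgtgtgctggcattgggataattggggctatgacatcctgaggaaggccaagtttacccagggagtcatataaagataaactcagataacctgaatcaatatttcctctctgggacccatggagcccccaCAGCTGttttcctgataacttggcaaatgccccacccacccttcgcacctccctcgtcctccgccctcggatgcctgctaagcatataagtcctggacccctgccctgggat
Fcgbp: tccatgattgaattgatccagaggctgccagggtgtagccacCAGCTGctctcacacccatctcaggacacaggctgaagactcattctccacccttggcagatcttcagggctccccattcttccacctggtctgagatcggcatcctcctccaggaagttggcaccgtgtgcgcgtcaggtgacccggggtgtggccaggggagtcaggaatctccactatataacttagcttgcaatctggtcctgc
Agr2: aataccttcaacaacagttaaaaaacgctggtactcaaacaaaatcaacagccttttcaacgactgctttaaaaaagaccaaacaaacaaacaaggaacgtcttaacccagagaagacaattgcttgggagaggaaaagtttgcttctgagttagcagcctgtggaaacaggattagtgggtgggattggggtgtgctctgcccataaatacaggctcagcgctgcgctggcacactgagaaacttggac
RefSeq promoter entries were found for 4 of the 9 genes, Klk1 being the other. In windows of 300 bases, from 250 before the start to 50 after it, CAGCTG was found once in Muc2 and once in Fcgbp, 112 and 208 bases before the start, and 16.3% of all 32851 promoters held it. Its other form, CAGATG, searched on both strands, was found in Klk1 alone of the 4 and in 17.2% of all promoters. The spacings bound by STAT6 and other STAT factors, TTCNNNNGAA and TTCNNNGAA, are the same on both strands. They were found in none of the 4, against 6.95% and 8.3% of all promoters.

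**Figure D1:**
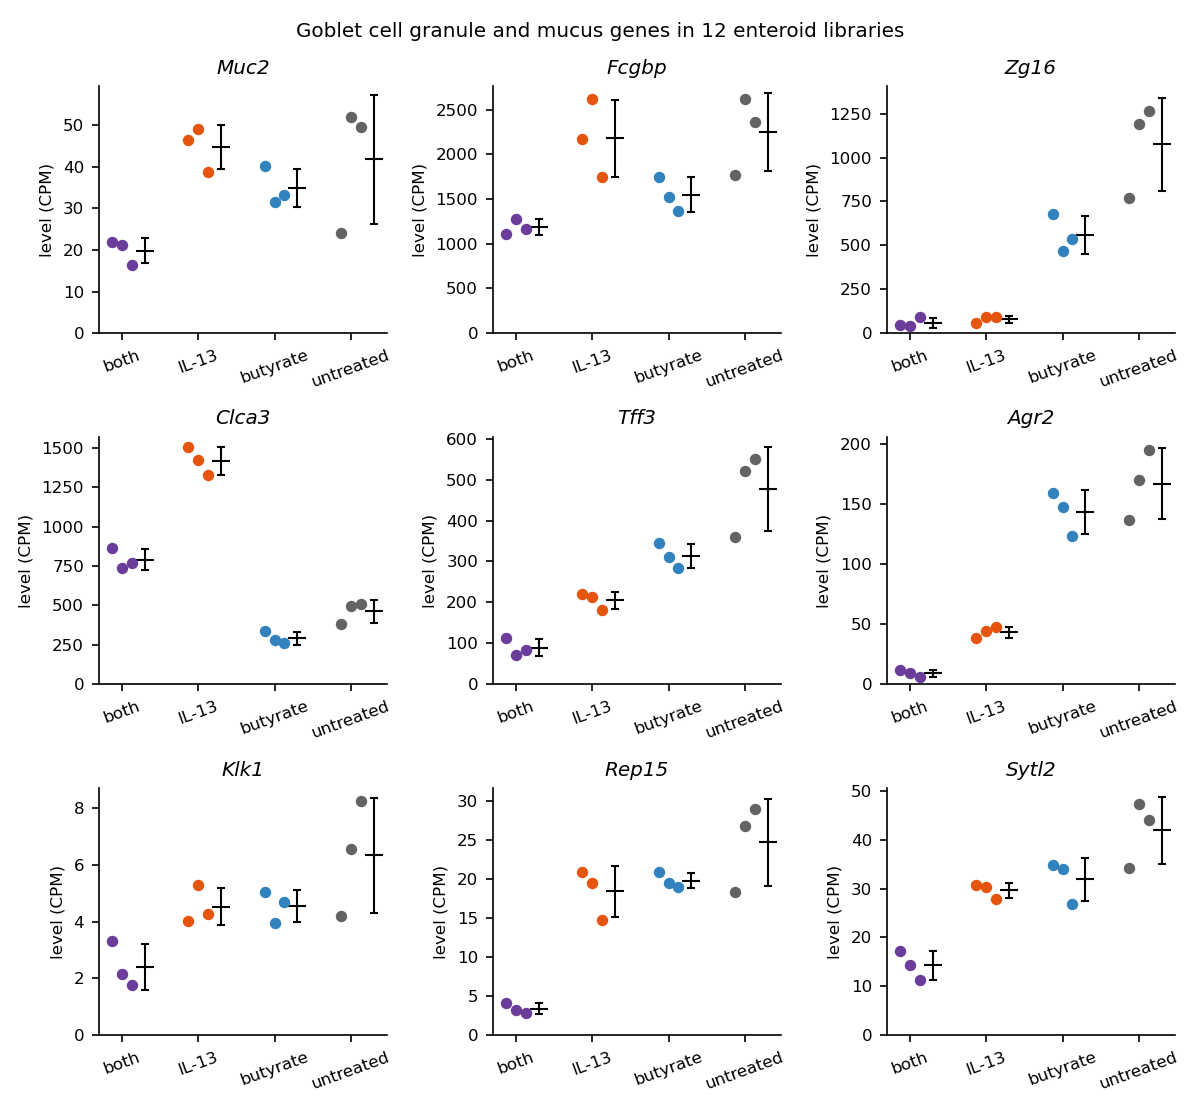
Level of each of the 9 genes in CPM (vertical axes, linear, from 0) in the 4 groups, with butyrate + IL-13 labelled both. Each dot is a library, and the dash and bar beside the dots are the mean and SD of the 3 libraries. Clca3 was highest with IL-13, at 1327 to 1504 CPM, while Zg16 stood at 57.0 to 93.4 CPM with IL-13 against 770 to 1263 CPM untreated.

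With IL-13 alone the 9 genes did not move as a block. Tested over all genes with edgeR's quasi-likelihood test, 1 rose, 5 fell and 3 did not pass (Benjamini-Hochberg adjusted p under 0.05), where 21.8% of all genes tested rose and 21.7% fell, 43.5% in all. The median log2 change of the 9 was -0.47, and that of all genes -0.01. In 1 gene every IL-13 library lay above every untreated one and in 4 below, as did 29.4% and 29.9% of all genes.

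Clca3 was the gene that rose. It encodes a secreted metalloprotease that cuts the MUC2 net. Its 3 libraries had 1504, 1421 and 1327 CPM with IL-13, against 379, 499 and 508 CPM untreated. Every IL-13 library lay above every untreated one, a log2 change of 1.62 ± 0.12 (SE; adjusted p = 4.2e-09, edgeR). Zg16, a small lectin of the granule that binds cell walls of Gram-positive bacteria, moved the other way. Its levels were 57.0, 89.7 and 93.4 CPM with IL-13, against 770, 1192 and 1263 CPM untreated, so the groups were far apart. The log2 change of -3.75 ± 0.33 (adjusted p = 1.1e-06, edgeR) was the 11th lowest among the 13750 genes.

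Agr2 fell as well, to 38.3, 44.1 and 47.4 CPM with IL-13, against 137, 170 and 195 CPM untreated. No libraries overlapped, and the log2 change was -1.95 ± 0.16 (adjusted p = 2e-08, edgeR). Tff3, a small trefoil peptide that stabilises mucus and aids epithelial repair, stood at 220, 213 and 180 CPM with IL-13, against 360, 521 and 549 CPM untreated. These groups were also separate, with a log2 change of -1.22 ± 0.15 (adjusted p = 4.4e-06, edgeR). Sytl2, a synaptotagmin-like effector of RAB27 that tethers granules to the membrane, fell by less: 30.6, 30.4 and 27.9 CPM with IL-13, against 34.3, 47.3 and 44.1 CPM untreated, again without overlap. Its log2 change was -0.50 ± 0.14 (adjusted p = 0.0096, edgeR), which became 0.061 without untreated replicate 2.

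Muc2 and Fcgbp did not pass the test with IL-13. Muc2 had 46.4, 49.0 and 38.8 CPM with IL-13, against 24.0, 52.0 and 49.6 CPM untreated, a log2 difference of 0.10 ± 0.20 (adjusted p = 0.73, edgeR). Untreated replicate 1 lay below every IL-13 library and the other 2 untreated libraries above every one, and without replicate 1 the difference was -0.18. Fcgbp encodes a large protein found with MUC2 in the gel. Fcgbp had 2166, 2617 and 1748 CPM with IL-13, against 1767, 2618 and 2359 CPM untreated, a log2 difference of -0.05 ± 0.14 (adjusted p = 0.82, edgeR). Its groups overlapped, and the difference was 0.08 without untreated replicate 2 and 0.09 without IL-13 replicate 3.

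Rep15, an effector of the recycling GTPase RAB15, stood at the edge of the threshold. It had 20.9, 19.5 and 14.8 CPM with IL-13, against 18.3, 26.8 and 28.9 CPM untreated, a log2 change of -0.42 ± 0.17 (adjusted p = 0.047, edgeR). The groups overlapped, and the call was lost in 10 of 20 alternatives, with adjusted p between 0.006 and 0.22; among them were the fits without untreated replicates 2 or 3, butyrate replicate 1, IL-13 replicates 2 or 3, and butyrate + IL-13 replicates 2 or 3. Klk1, a tissue kallikrein and so a serine protease, averaged 4.54 ± 0.661 CPM with IL-13 and 6.34 ± 2.04 CPM untreated (SD, n = 3 each), a log2 difference of -0.47 ± 0.25 that did not pass (adjusted p = 0.14, edgeR). It passed without untreated replicate 1 (-0.70, adjusted p = 0.03, edgeR) and with library totals only (-0.64, adjusted p = 0.045, edgeR). Without untreated replicate 2 the number that fell was 3 in place of 5.

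For the same libraries the submitters' own DESeq results were at hand. There 6 of the 9 genes had an FDR under 0.05 in the authors' deposited table, and these were the 6 called here. Its log2 changes in the authors' deposited table were 1.62 for Clca3 and -3.74 for Zg16, positive meaning higher with IL-13.

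Markers of other cell types also moved with IL-13, and their part in these results was not tested. Their counts are to be read against the 21.8% of all genes that rose and the 21.7% that fell. Of 6 proliferation genes all 6 fell, with summed levels of 209 to 296 CPM with IL-13 against 640 to 656 CPM untreated. Of the 7 tuft cell genes tested, of 8, 6 rose, and the sums of the 8 were 77.9 to 89.0 CPM with IL-13 against 16.9 to 24.4 CPM untreated. Of 6 stem cell genes 4 fell, with sums of 319 to 370 CPM with IL-13 against 611 to 615 CPM untreated. Of the 6 Paneth cell genes tested 4 fell and 1 rose, and the sums of all 7, 2740 to 3790 CPM with IL-13 and 2170 to 2990 CPM untreated, overlapped. Of 8 absorptive enterocyte genes 3 rose and 2 fell, with sums of 6890 to 7360 CPM with IL-13 against 4720 to 5300 CPM untreated. Of 9 enteroendocrine genes 2 rose, near the share of all genes, and 1 fell. Their sums, 1360 to 1480 CPM with IL-13 and 1110 to 1510 CPM untreated, overlapped.

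The mix of the 9 transcripts also differed between groups. Together they made up 0.341 to 0.436% of all counts with IL-13 and 0.379 to 0.562% untreated, so these ranges overlapped. Within the 9, Clca3 took 31.7 to 38.1% of the counts with IL-13 and 9.72 to 10.9% untreated, and Zg16 took 1.4 to 2.68% with IL-13 and 22.0 to 25.2% untreated. The count of Clca3 over that of Zg16 was 14.2 to 26.4 in IL-13 libraries and 0.402 to 0.493 in untreated ones, a ratio that does not depend on scaling. Fcgbp held close to the same share throughout, 50.2 to 58.3% with IL-13 and 47.1 to 51.0% untreated.

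**Figure D2:**
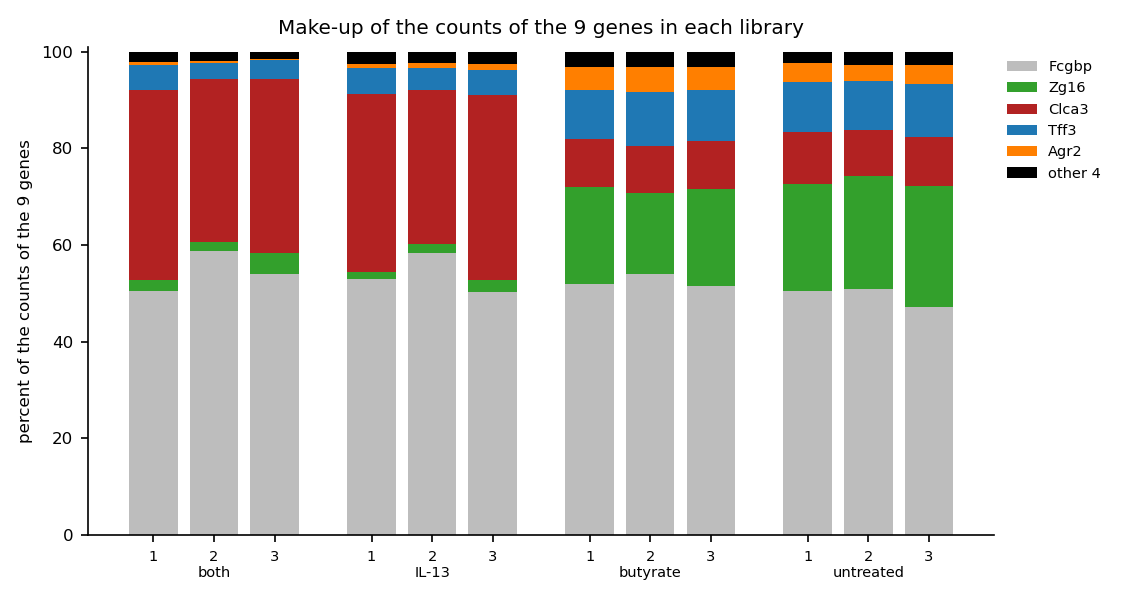
Share of each gene in the counts of the 9 genes (vertical axis, percent) in each of the 12 libraries (horizontal axis, numbered by replicate within group; both means butyrate + IL-13). Clca3 (red) took 31.7 to 39.5% in the 6 libraries with IL-13 and 9.72 to 10.9% in the 6 without, and Zg16 (green) 1.4 to 4.33% and 16.6 to 25.2%.

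Levels of different genes can be set side by side only per length, here CPM per kilobase of the exons that each table row covers. In untreated enteroids Zg16 came first at 1690 ± 419, followed by Tff3 at 967 ± 207, Fcgbp at 283 ± 55.0, Agr2 at 213 ± 37.4 and Clca3 at 157 ± 24.4 CPM per kb (SD, n = 3). Rep15 (26.4 ± 5.97), the counted part of Muc2 (20.6 ± 7.64), Sytl2 (10.9 ± 1.77) and Klk1 (7.24 ± 2.32 CPM per kb) were lower. Intervals of 1 SD overlapped between Fcgbp and Agr2, Agr2 and Clca3, Rep15 and Muc2, and Sytl2 and Klk1. The SD is a spread between libraries, and all the genes were measured in the same libraries. An overlap of these intervals therefore does not decide the order of 2 genes within a library, which was not tested. With IL-13 the order changed: Clca3 came first at 483 ± 30.1 and Tff3 next at 415 ± 43.3, followed by Fcgbp at 274 ± 54.8, and Zg16 came after these at 126 ± 31.5 CPM per kb. The 1 SD intervals of Clca3 and Tff3 overlapped there. Clca3 was also first with both agents, at 269 ± 23.0 CPM per kb, while with butyrate alone Zg16 was first at 882 ± 169 CPM per kb.

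With butyrate alone all 9 log2 differences were below 0, though few passed the test. None rose and 3 fell, where 5.14% of all genes tested rose and 2.76% fell, 7.9% in all. This comparison shares its untreated libraries with that of IL-13. The median log2 difference of the 9 was -0.46, against -0.01 over all genes, and in 4 of the 9 every butyrate library lay below every untreated one, as in 14.0% of all genes.

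Clca3 gave the firmest fall with butyrate. It had 339, 279 and 259 CPM with butyrate, against 379, 499 and 508 CPM untreated, with no overlap and a log2 change of -0.66 ± 0.11 (adjusted p = 0.0012, edgeR). It was called in each of 20 alternatives. Tff3 had 344, 311 and 285 CPM with butyrate, against 360, 521 and 549 CPM untreated, a log2 change of -0.60 ± 0.15 (adjusted p = 0.017, edgeR). Fcgbp had 1750, 1527 and 1366 CPM with butyrate, against 1767, 2618 and 2359 CPM untreated, a log2 change of -0.54 ± 0.14 (adjusted p = 0.024, edgeR). For both genes the highest butyrate library nearly met the lowest untreated one.

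These last calls rested on single libraries. Tff3 and Fcgbp lost their calls without untreated replicates 2 or 3 or butyrate replicates 2 or 3, with adjusted p up to 0.13 for Tff3 and 0.16 for Fcgbp, so that 1 gene was called in place of 3. Without untreated replicate 1, 6 were called, the others being Zg16, Muc2 (-0.54, adjusted p = 0.028, edgeR) and Sytl2 (-0.52, adjusted p = 0.043, edgeR). That library was the lowest untreated one in all 9 genes, and butyrate replicate 1 was the highest butyrate library in all 9. Zg16 had 680, 469 and 535 CPM with butyrate, against 770, 1192 and 1263 CPM untreated; the groups did not overlap, but its log2 difference of -0.94 ± 0.29 did not pass (adjusted p = 0.074, edgeR). It passed in 10 of 20 alternatives, among them those without untreated replicate 1 or any single IL-13 library. Muc2 (-0.26 ± 0.20, adjusted p = 0.52), Agr2 (-0.22 ± 0.15, 0.44), Rep15 (-0.32 ± 0.16, 0.27), Klk1 (-0.46 ± 0.24, 0.29) and Sytl2 (-0.39 ± 0.14, 0.11) did not pass in the edgeR fit.

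Markers of other cell types moved with butyrate too, and their part in these results was not tested. Here 5.14% of all genes rose and 2.76% fell. All 9 of 9 enteroendocrine genes fell, with summed levels of 493 to 612 CPM with butyrate against 1110 to 1510 CPM untreated. Of the 7 tuft cell genes tested 4 fell, with sums of 8.89 to 13 CPM with butyrate against 16.9 to 24.4 CPM untreated. Of 6 stem cell genes 2 fell and 1 rose. Of the 6 Paneth cell genes tested 1 rose and none fell, and the sums were 3490 to 4400 CPM with butyrate against 2170 to 2990 CPM untreated. Of 8 absorptive enterocyte genes 3 rose and 1 fell, with sums of 6510 to 7180 CPM with butyrate against 4720 to 5300 CPM untreated. None of 6 proliferation genes was called. Their sums, 563 to 658 CPM with butyrate and 640 to 656 CPM untreated, overlapped.

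Adding butyrate to IL-13 lowered nearly the whole set. Compared with IL-13 alone, 8 of the 9 genes fell and none rose, where 9.85% of all genes tested rose and 11.3% fell, 21.2% in all. The median log2 change of the 9 was -1.06, and that of all genes -0.01. The same 8 were the genes in which every butyrate + IL-13 library lay below every IL-13 library, as in 19.1% of all genes; 17.8% of all genes lay wholly above. Together the 9 took 0.188 to 0.197% of all counts with both agents and 0.341 to 0.436% with IL-13.

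Agr2 and Rep15 fell the most. Agr2 stood at 12.02, 9.24 and 6.14 CPM with both agents, against 38.3, 44.1 and 47.4 CPM with IL-13, a log2 change of -2.25 ± 0.19 (adjusted p = 3e-07, edgeR). Rep15 stood at 4.11, 3.27 and 2.78 CPM with both agents, from 38 to 52 counts a library, against 20.9, 19.5 and 14.8 CPM with IL-13. Its log2 change was -2.44 ± 0.21 (adjusted p = 4.1e-07, edgeR). In neither gene did the groups come near each other.

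Muc2 had 21.8, 21.2 and 16.3 CPM with both agents, against 46.4, 49.0 and 38.8 CPM with IL-13, a log2 change of -1.18 ± 0.22 (adjusted p = 0.00092, edgeR). Fcgbp had 1108, 1282 and 1161 CPM with both agents, against 2166, 2617 and 1748 CPM with IL-13, a log2 change of -0.88 ± 0.14 (adjusted p = 0.00029, edgeR). The groups of each gene were separate, and both calls held in all 20 alternatives. Clca3 had 866, 735 and 770 CPM with both agents, against 1504, 1421 and 1327 CPM with IL-13, a log2 change of -0.84 ± 0.11 (adjusted p = 6e-05, edgeR). The Clca3 levels with both agents thus lay below those with IL-13 and above those of every library without it.

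Tff3 fell to 112, 72.2 and 84.7 CPM with both agents, against 220, 213 and 180 CPM with IL-13 (log2 change -1.19 ± 0.16, adjusted p = 4.2e-05, edgeR). Sytl2 fell to 17.2, 14.4 and 11.2 CPM with both agents, against 30.6, 30.4 and 27.9 CPM with IL-13 (log2 change -1.06 ± 0.16, adjusted p = 0.00013, edgeR). Klk1 had 3.32, 2.15 and 1.76 CPM with both agents, against 4.04, 5.29 and 4.29 CPM with IL-13, a log2 change of -0.92 ± 0.29 (adjusted p = 0.029, edgeR). The Klk1 call rested on 24 to 77 counts a library and was lost without IL-13 replicates 2 or 3 or butyrate + IL-13 replicates 2 or 3, with adjusted p up to 0.14.

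Zg16, already low with IL-13, was the exception. It had 46.0, 38.6 and 93.0 CPM with both agents, against 57.0, 89.7 and 93.4 CPM with IL-13, so the groups overlapped through replicate 3 of the butyrate + IL-13 group. The log2 difference was -0.43 ± 0.31 (adjusted p = 0.36, edgeR). Without that library it was -0.90 and passed (adjusted p = 0.013, edgeR), and without both libraries highest in Lars2 it was -0.92 (adjusted p = 0.034, edgeR). Replicate 3 and butyrate replicate 2 also stood apart from the other libraries in Lars2, which encodes the mitochondrial leucyl-tRNA synthetase, at 6983 and 5048 CPM, where the other 10 libraries had 423 to 1434 CPM.

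Markers of other cell types moved between the same groups, and their part in these results was not tested. The shares of all genes were 9.85% higher and 11.3% lower. All 9 of 9 enteroendocrine genes fell, with sums of 192 to 360 CPM with both agents against 1360 to 1480 CPM with IL-13. Of the 7 tuft cell genes tested 6 fell, and the sums were 17.1 to 27.4 CPM with both agents against 77.9 to 89.0 CPM with IL-13. Of the 6 Paneth cell genes tested 4 fell and 1 rose, with sums of 1390 to 2080 CPM with both agents against 2740 to 3790 CPM with IL-13. Of 6 stem cell genes 4 fell and 1 rose, and of 6 proliferation genes 3 fell. Of 8 absorptive enterocyte genes 2 rose and 2 fell, with sums of 8030 to 10900 CPM with both agents against 6890 to 7360 CPM with IL-13.

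**Figure D3:**
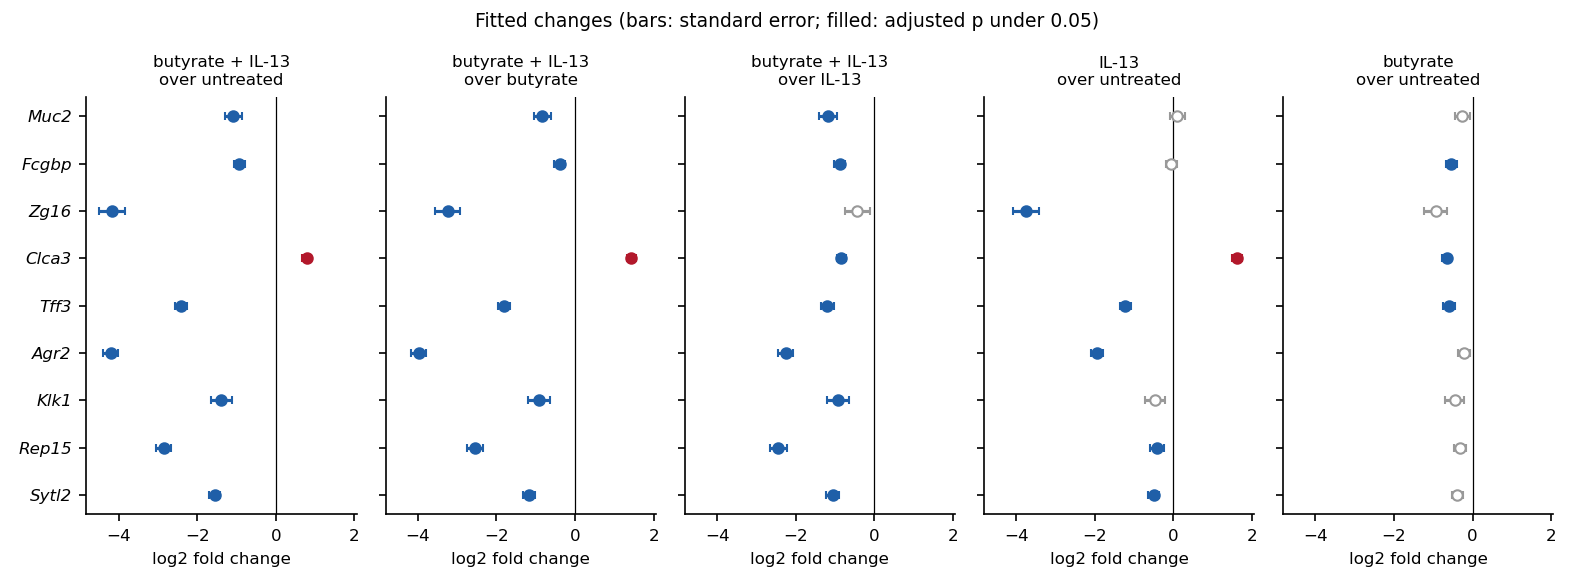
Fitted log2 fold change (horizontal axes) of each of the 9 genes in the 5 comparisons, with bars for the standard error. Filled symbols passed an adjusted p under 0.05 (blue lower, red higher) and open grey ones did not. With both agents over IL-13, 8 of 9 genes were filled blue, and with IL-13 over untreated, Clca3 was red and 5 genes were blue.

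Set against butyrate alone, the enteroids with both agents showed 8 genes lower and Clca3 higher, where 24.9% of all genes tested fell and 22.9% rose (47.7% in all). All 9 were without overlap, as 26.8% of all genes were wholly below and 23.7% wholly above. The median log2 changes were -1.17 for the 9 and -0.04 for all genes. Agr2 had the largest fall, with a log2 change of -3.98 ± 0.19 (adjusted p = 1e-11, edgeR) and means of 9.13 ± 2.94 CPM with both agents and 144 ± 18.5 CPM with butyrate (SD, n = 3 each). Zg16 (-3.24 ± 0.32), Rep15 (-2.55 ± 0.20) and Tff3 (-1.81 ± 0.16) followed, and Sytl2 (-1.17 ± 0.16), Klk1 (-0.93 ± 0.28), Muc2 (-0.83 ± 0.22) and Fcgbp (-0.39 ± 0.14) changed less. Clca3 rose by 1.43 ± 0.12 on the log2 scale (adjusted p = 1.4e-08, edgeR). Klk1 lost its call without butyrate + IL-13 replicate 3 (adjusted p = 0.07), and Muc2 without the 2 libraries highest in Lars2 (adjusted p = 0.068). Fcgbp lost its call without butyrate replicates 1 or 2 or butyrate + IL-13 replicates 1 or 3, with adjusted p up to 0.16.

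Against untreated enteroids, both agents together again left 8 genes lower and Clca3 higher, where 31.5% of all genes tested fell and 28.2% rose, 59.7% in all. The libraries of all 9 were apart, as 35.1% of all genes were wholly below and 31.0% wholly above. The median log2 change was -1.56 for the 9 and -0.05 for all genes. Agr2 (-4.20 ± 0.19, adjusted p = 2.7e-12) and Zg16 (-4.18 ± 0.33, adjusted p = 2.1e-07) ranked 59th and 60th lowest of 13750 genes in the edgeR fit. Rep15 fell by 2.86 ± 0.20, Tff3 by 2.41 ± 0.16, Sytl2 by 1.56 ± 0.15, Klk1 by 1.39 ± 0.27, Muc2 by 1.08 ± 0.22 and Fcgbp by 0.93 ± 0.14 on the log2 scale. Clca3 rose by 0.78 ± 0.11 (adjusted p = 1.3e-05, edgeR). All 9 calls held in all 20 alternatives. These comparisons share libraries with each other and with those of the single agents, so they are not separate evidence. Other cell types' markers moved here as well, and their part was not tested: over untreated, 9 of 9 enteroendocrine, 6 of 6 proliferation, 6 of 6 stem cell and 5 of 6 Paneth cell genes fell, and over butyrate 7, 6, 5 and 5 of them. Of the 7 tuft cell genes tested, 6 rose over butyrate. Over untreated 2 rose, near the share of all genes, and the sums overlapped (17.1 to 27.4 CPM with both agents, 16.9 to 24.4 CPM untreated). Of 8 absorptive enterocyte genes 4 rose and 2 fell over untreated, with sums of 8030 to 10900 CPM with both agents against 4720 to 5300 CPM untreated. Over butyrate 2 of these rose and 2 fell, near the shares of all genes.

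Whether the agents combined by simple addition on the log2 scale was asked with the interaction term, in which 0.611% of all genes tested were called lower and 0.255% higher, 0.865% in all. Of the 9 genes, 2 were called, both lower. Agr2 changed by -1.95 with IL-13 and -0.22 with butyrate, a sum of -2.17, and by -4.20 with both, which leaves an interaction of -2.03 ± 0.24 (adjusted p = 0.00051, edgeR). Rep15 changed by -0.42 with IL-13 and -0.32 with butyrate, a sum of -0.74, and by -2.86 with both, an interaction of -2.13 ± 0.26 (adjusted p = 0.00065, edgeR). Both calls held in all 19 alternatives, with adjusted p of at most 0.0053 for Agr2 and 0.0049 for Rep15. They also ranked 116th (Agr2) and 99th (Rep15) from the lowest of the 13750 interaction values.

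The other 7 genes did not pass the interaction test. Muc2 was -0.92 ± 0.30 (adjusted p = 0.2), Sytl2 -0.67 ± 0.21 (0.19), Tff3 -0.59 ± 0.21 (0.28), Klk1 -0.46 ± 0.38 (0.77), Fcgbp -0.34 ± 0.20 (0.61), Clca3 -0.18 ± 0.16 (0.79) and Zg16 0.51 ± 0.42 (0.78) in the edgeR fit. The Zg16 value was -0.10 without the 2 libraries highest in Lars2. The median of the 9 interaction values was -0.59, against -0.02 over all genes.

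**Figure D4:**
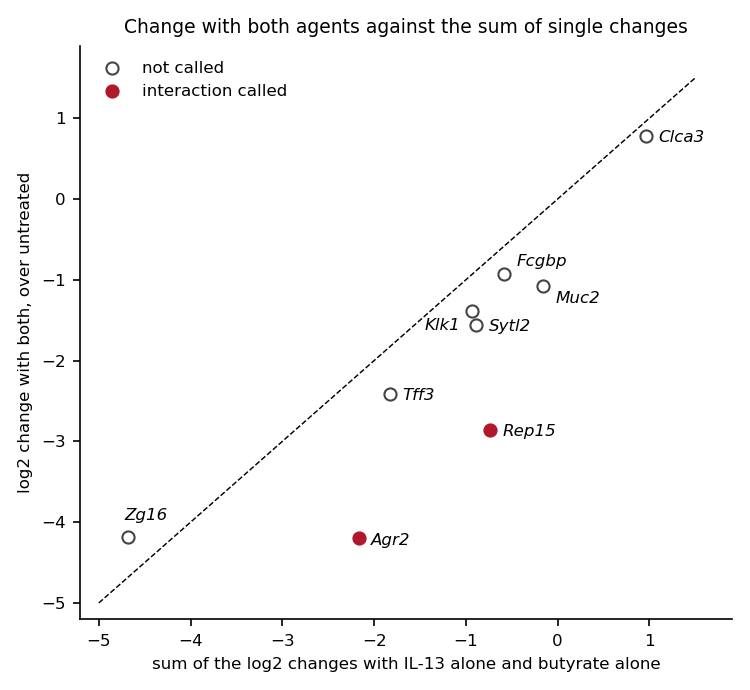
Log2 change with both agents over untreated (vertical axis) against the sum of the log2 changes with IL-13 alone and butyrate alone (horizontal axis) for each of the 9 genes. The dashed line marks equality, and filled symbols passed the interaction test. Agr2 (sum -2.17, both -4.20) and Rep15 (sum -0.74, both -2.86) lie farthest below the line.

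Since the Muc2 row covers the 3′ part of the gene, 2 further rows with the same strand inside the GENCODE gene were read as well. They carry clone names, CAAA01115770.1 (141695703 to 141697247) and CAAA01221083.1 (141699186 to 141701375), and each has the ends of a short annotated Muc2 transcript. CAAA01221083.1 had 1.11, 2.15 and 2.78 CPM with both agents, 2.96, 5.91 and 4.02 CPM with IL-13, and 2.99, 4.66 and 4.21 CPM untreated. It fell with both agents, by 1.08 ± 0.35 on the log2 scale against IL-13 (adjusted p = 0.036, edgeR) and by 0.96 ± 0.35 against untreated (adjusted p = 0.023, edgeR). With IL-13 alone it differed by 0.12 ± 0.31 from untreated (adjusted p = 0.78, edgeR). Over butyrate alone its difference with both agents, -0.78 ± 0.35, did not pass (adjusted p = 0.076, edgeR), where that of the Muc2 row did. CAAA01115770.1, at 4 to 44 counts a library, passed in none of the comparisons, and the standard errors of its changes, 0.47 to 0.57 in the 5 pairwise comparisons, were more than those of the Muc2 row, 0.20 to 0.22.

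**Figure D5:**
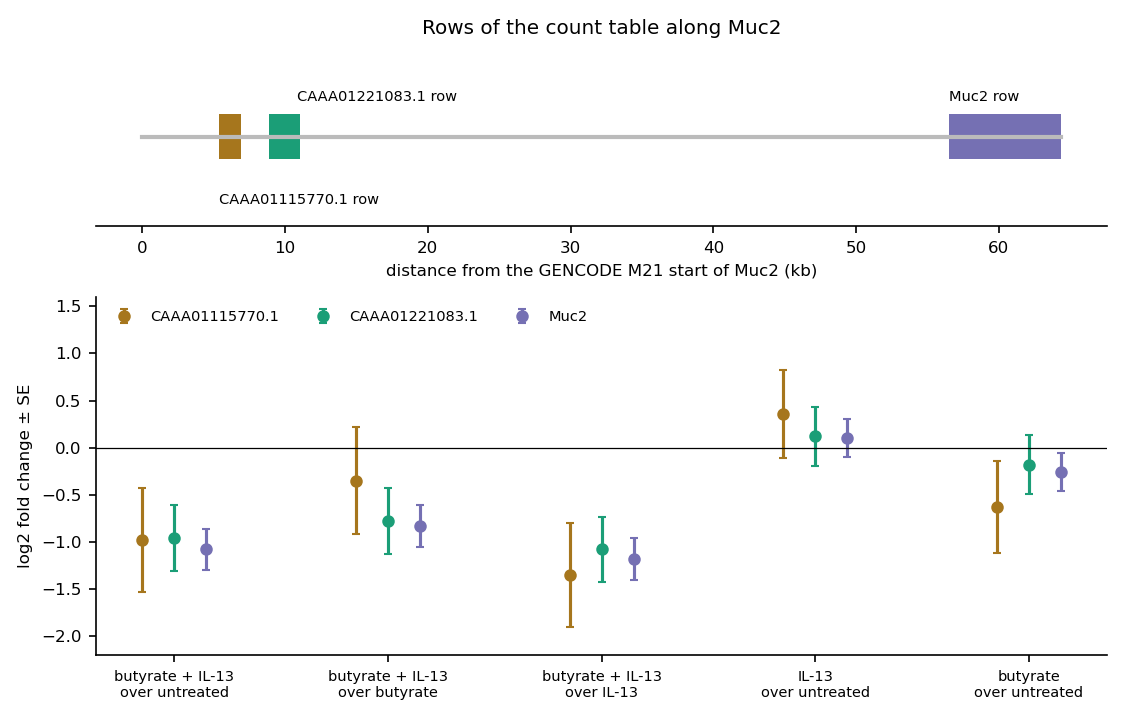
Upper panel, the 3 rows of the count table that lie in Muc2, drawn to scale by distance from the GENCODE M21 start (kb). Lower panel, the fitted log2 fold change of each row with its standard error in the 5 comparisons. The Muc2 row fell by 1.18 with both agents over IL-13, and the row CAAA01221083.1 by 1.08.

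Fcgbp and Klk1 overlap predicted genes on the opposite strand, and the sources used here do not say whether counting used strand. Gm10935, inside Fcgbp, had a log2 change of -0.93 ± 0.16 with both agents over IL-13 (adjusted p = 0.00055, edgeR), where Fcgbp had -0.88. Gm10109, across the start of Klk1, had at most 4 counts in any library. Close relatives of Klk1 took few reads: 5 Klk1b rows had 16 counts in all 12 libraries together.

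The rise of Clca3 with IL-13 was not shared by most of its family. Another 5 CLCA genes stand beside it on chromosome 3 on the same strand, and 4 of these 5 fell with IL-13 while 1 rose, counts that were the same under all 3 scalings tried, where 21.7% of all genes fell and 21.8% rose. The row Clca4 (now Clca3b) had 20.8, 21.7 and 31.5 CPM with IL-13, against 184, 182 and 186 CPM untreated, a log2 change of -2.90 ± 0.13 (adjusted p = 8.4e-12, edgeR). The row Clca6 (now Clca4a) had 9.08, 12.9 and 15.2 CPM with IL-13, against 35.8, 23.5 and 26.4 CPM untreated (log2 change -1.20 ± 0.24, adjusted p = 0.00053, edgeR). The row Clca1 (now Clca3a1) fell by 1.97 ± 0.37 on the log2 scale (adjusted p = 0.0003, edgeR), and the row Clca2 (now Clca3a2) had 2 counts over the IL-13 libraries together, none with both agents, and 33 to 53 in each untreated one. Only the row Clca5 (now Clca2), at 24 to 27 counts a library with IL-13 against 4 to 9 untreated, also rose (log2 change 2.62 ± 0.53, adjusted p = 0.00056, edgeR). The sources used here do not say how reads shared by similar CLCA genes were assigned.

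Other genes of the mucus pathway were counted in lists, to be read against the 21.8% of all genes that rose and 21.7% that fell with IL-13, the 5.14% and 2.76% with butyrate, and the 9.85% and 11.3% with both agents over IL-13. Of 9 transcription factors listed for goblet cells, 7 fell with butyrate and none rose. With both agents over IL-13, 8 fell and none rose, and with IL-13 alone 1 rose and 1 fell. The list medians were -0.65, -1.76 and -0.09 on the log2 scale, in that order. Not all of the 9, among them Atoh1 and Nkx2-2, are particular to goblet cells. Atoh1, needed for all secretory lineages, averaged 10.6 ± 1.35 CPM with both agents and 37.0 ± 4.55 CPM with IL-13 (SD, n = 3 each), a log2 change of -1.81 ± 0.14 (adjusted p = 1.9e-07, edgeR). Spdef, which drives goblet cell maturation, averaged 10.1 ± 2.09 CPM with both agents and 45.4 ± 3.33 CPM with IL-13 (log2 change -2.16 ± 0.18, adjusted p = 3e-07, edgeR). Both had interaction terms that were called lower, -1.15 ± 0.18 for Atoh1 (adjusted p = 0.0052, edgeR) and -1.51 ± 0.24 for Spdef (adjusted p = 0.0049, edgeR). Klf4 was the factor that rose with IL-13, to 161 ± 10.8 CPM against 87.8 ± 3.35 CPM untreated (adjusted p = 8.3e-07, edgeR). Its interaction term was called higher, 0.68 ± 0.14 (adjusted p = 0.021, edgeR), a call lost in 6 alternatives with adjusted p up to 0.077: without untreated replicates 2 or 3, butyrate replicate 1, IL-13 replicates 1 or 2, or both libraries highest in Lars2.

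Genes for folding mucin and easing stress of the endoplasmic reticulum were divided. With both agents over IL-13, 3 of 17 tested rose and 5 fell, and with IL-13 over untreated 4 rose and 6 fell, the 4 close to the share of all genes. The oxidase gene Ero1l averaged 664 ± 36.7 CPM with both agents and 419 ± 26.0 CPM with IL-13 (log2 change 0.67 ± 0.10, adjusted p = 0.00016, edgeR). Txndc5, a disulfide isomerase, averaged 104 ± 6.54 CPM with both agents and 202 ± 11.7 CPM with IL-13 (log2 change -0.96 ± 0.09, adjusted p = 1.6e-06, edgeR). Ern2, a stress sensor of goblet cells, fell by 1.58 ± 0.19 on the log2 scale between the same groups (adjusted p = 2.2e-05, edgeR), while Ern1, its widely expressed relative, rose by 0.59 ± 0.09 (adjusted p = 0.00014, edgeR).

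The exocytosis list showed 6 of 18 genes higher and 1 lower with IL-13 over untreated, and 1 higher and 7 lower with both agents over IL-13. Rab27a, whose product recruits SYTL2 to granules, averaged 19.8 ± 4.85 CPM with both agents and 41.1 ± 3.98 CPM with IL-13, a log2 change of -1.05 ± 0.16 (adjusted p = 0.00016, edgeR). Rab15, the partner of REP15, changed by -1.01 ± 0.13 between the same groups (adjusted p = 3.1e-05, edgeR). With IL-13 alone Rab15 rose by 0.45 ± 0.12 (adjusted p = 0.0074, edgeR), a call lost with library totals only and without IL-13 replicate 1 (adjusted p up to 0.086), whereas Rep15 was lower. Scaling by library totals alone gave 4 higher and 2 lower for the list with IL-13.

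Of the other mucins, 4 of 15 were tested, and with IL-13 2 rose and 1 fell (1 and 1 with library totals only). With IL-13 the membrane mucin Muc3 rose to 162 ± 33.3 CPM, against 84.5 ± 8.42 CPM untreated (log2 change 0.94 ± 0.20, adjusted p = 0.00096, edgeR), and Muc13 fell to 669 ± 36.4 CPM, against 882 ± 21.5 CPM untreated (log2 change -0.40 ± 0.08, adjusted p = 0.00065, edgeR). Muc4, also a membrane mucin, averaged 53.3 ± 13.9 CPM with IL-13 and 37.9 ± 7.68 CPM untreated, in overlapping groups (log2 change 0.49 ± 0.18, adjusted p = 0.031, edgeR). That call was lost in 8 of 20 alternatives, with adjusted p up to 0.24, among them those without untreated replicate 1, butyrate replicates 2 or 3, or IL-13 replicates 2 or 3. None of the 4 passed with both agents over IL-13, though Muc3 did without butyrate + IL-13 replicate 1 (adjusted p = 0.012, edgeR). The gel-forming mucins of the stomach and airway, Muc5ac and Muc6, had at most 3 and 9 counts in any library. A list of further goblet cell products is not confined to that cell type, as Itln1 is also among the Paneth cell genes above. Of its 25 genes tested, 2 rose and 13 fell with both agents over IL-13 (0 and 13 with library totals only). With IL-13 over untreated 5 rose, near the share of all genes, and 10 fell.

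Finally, the genes nearest to each of the 9 were sought by the root mean square difference between 3 log2 changes (IL-13, butyrate and both, each over untreated), among the 10244 genes averaging 50 counts or more whose symbol is not that of a predicted gene, clone or Rik entry. These 3 changes share the untreated libraries, and likeness here is a description. The gene nearest to Agr2 was Myb (0.291), with changes of -2.05 with IL-13, -0.55 with butyrate and -3.83 with both. The nearest to Rep15 were Wnt3 (0.158), Rgs16 (0.194) and Atoh1 (0.333). Sytl2 lay closest to the lectin gene Itln1 (0.035), Clca3 to Tspan6 (0.179), Muc2 to Ddit4l and Slc18a1 (0.103 each), and Zg16 to Klhl23 (0.493). No other of the 9 came within 1.117 of Zg16 or 1.376 of Clca3, while Klk1 and Sytl2 were nearest to each other among the 9 (0.105).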

How the data were processed

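Poly(A) RNA of 12 enteroid libraries was sequenced with a directional protocol, per the labels' protocols. The deposited table gives raw counts per gene, which the authors had not normalised, and, per the file headers, the p-value, FDR and log2 fold change that the authors obtained with DESeq for IL-13 against untreated, for rows whose corrected p was under 1. Per the submitters' processing notes the genome build was mm10. The aligner and the counting tool: not given in the sources used here.

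Rows of the same gene were summed (23 genes with several rows; 18092 rows became 18068 genes). Library totals ran from 13867982 to 24294456 counts. The test was edgeR's robust quasi-likelihood test (version 4.0.16, R 4.3.3; TMM scaling, with factors of 0.876 to 1.11, and filterByExpr, which removed 4318 genes) in one fit of all 12 libraries. The fit left 8 residual degrees of freedom, and its common biological coefficient of variation came to 10.2%. CPM values use the TMM-scaled library sizes, and shares of counts use the plain totals. Standard errors are the log2 change over the root of the F statistic. The code was tested on simulated data.

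Alternatives were RLE scaling, library totals only, DESeq2 1.42.0, no filter, a mean of at least 50 counts, only the groups compared, the replicate number as a block, each library left out, and both libraries highest in Lars2 left out. The members and lists were chosen with earlier results of these data known. All 9 genes are named; from other lists, called genes in order of adjusted p, at most 4 per list and comparison, and relatives or partners of the 9 were named after their values were seen. The E-box letters were also chosen then. GENCODE M21 gave exon lengths.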

Additional observations from a re-analysis of the deposited data

Results flagged for a closer look

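The effect of IL-13 on Agr2 differed with butyrate present. IL-13 changed Agr2 by -3.98 ± 0.19 on the log2 scale over butyrate alone and by -1.95 ± 0.16 over untreated, and the difference, the interaction term, was -2.03 ± 0.24 (adjusted p = 0.00051, edgeR). It held in 19 of 19 alternatives, from -2.27 to -1.79.

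Rep15 was picked out in the same way. IL-13 changed it by -2.55 ± 0.20 over butyrate alone and by -0.42 ± 0.17 over untreated, a difference of -2.13 ± 0.26 (adjusted p = 0.00065, edgeR). It also held in 19 of 19 alternatives, from -2.28 to -1.95.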

How the results depend on the processing

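Of 1071 values of single genes under the alternatives, 1014 kept their direction and side of the threshold, 36 lost a call, 16 gained one and 5 changed sign; none of the 5 was called. With IL-13 over untreated, Muc2 became -0.07 with library totals only and -0.18 without untreated replicate 1, and Fcgbp 0.08 without untreated replicate 2 and 0.09 without IL-13 replicate 3; over the fits that each left out 1 library they ran from -0.18 to 0.29 and from -0.20 to 0.09. The interaction of Zg16 became -0.10 without the 2 libraries highest in Lars2. The number of genes that fell with IL-13 was 3 to 6 over the fits that each left out 1 library. With butyrate it was 1 to 6 over such fits, 1 with no filter and 1 without the 2 libraries highest in Lars2, in place of 3. The cause was not tested. With library totals only, the median log2 change of all genes was -0.34 for both agents over untreated and -0.18 for IL-13 over untreated, in place of -0.05 and -0.01.

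The replicate numbers gave no sign of pairing: deviations of same-numbered libraries correlated at -0.23 to 0.15, and 2 of 12 libraries correlated best with their own number. With 3 libraries per group this cannot exclude a shared culture or mouse. With the replicate number as a block, 5866 genes were called for IL-13 over untreated in place of 5977, Rep15 lost its call (log2 change -0.43, adjusted p = 0.056, edgeR) and Zg16 gained one with butyrate (-0.89, adjusted p = 0.039, edgeR). Depth limits Klk1, at 24 to 162 counts a library, and Rep15 with both agents, at 38 to 52.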
